A study of Rattus norvegicus with 14 samples.

Results

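The extracellular matrix genes described here are 34 rat genes for the proteins that cells secrete around themselves. They comprise 5 fibrillar collagen chains, 5 other collagen chains, 8 basement membrane genes, 6 elastic fibre genes, 4 proteoglycans and 6 matrix glycoproteins. Each was found by its symbol among the 14217 genes named on the arrays, and is represented by 1 probe set, the one with the highest mean log2 signal. All 34 reached the signal needed for testing, as did 9835 of the named genes; the filter asked for a signal of 100 on 2 arrays, and Tnn, Col6a3 and Thbs2 met it through b arrays (Thbs2 reached 100 on DMSO 1 besides) and Lum through NS-398 arrays 1 and 2 only. RNA came from IEC-6, an epithelial line derived from rat small intestine, and was hybridised to 14 one-colour Affymetrix arrays. The cells had been kept for 72 h with DMSO, the solvent, alone (4 arrays), with 100 µM indomethacin (2 arrays), with 100 µM NS-398 (4 arrays) or with 1 µM SC-560 (4 arrays). Indomethacin blocks both cyclooxygenases, NS-398 prefers cyclooxygenase-2 and SC-560 prefers cyclooxygenase-1. In the submitters' account the first 2 of these drugs inhibit migration of the monolayer and the last does not. Arrays were labelled 1 or 2, with or without the letter b: the 6 arrays without the letter (2 of DMSO, 2 of NS-398 and 2 of SC-560) are called the plain set here and the 8 with it, which include both indomethacin arrays, the b set. The labels do not say what the letter stands for. Cultures were pooled and each biological sample was put on several chips, per the submitters, so the p-values reflect how arrays vary, possibly for technical reasons, rather than how experiments vary.

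Fibrillar collagens form the tensile fibres of the interstitial matrix, while type IV collagen, laminins and nidogen form the basement membrane on which an epithelium sits and over which it moves. Elastin is deposited on a scaffold of fibrillin microfibrils, and lysyl oxidases crosslink elastin and collagen. Small leucine-rich proteoglycans bind collagen fibrils, and matricellular glycoproteins such as thrombospondins, tenascins and periostin modify how cells attach. In the gut much of this matrix is made by mesenchymal cells, with the epithelium adding basement membrane components.

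The signals had been scaled by the authors to a common target, and the median signal of an array lay between 97.8 and 118.1. Of 16 epithelial markers 6 stayed under a signal of 100 on every array: Krt18, Epcam, Cldn3, Cldn4, Cldn7 and Muc2. Krt8 lay at 2669.8 to 3537 in the plain set and 4483 to 6893 in the b set. Cdh1 (E-cadherin) lay at 7680.0 to 8412 and 2637 to 3671, and Tjp1 at 6963 to 12301 over all arrays. Vim (vimentin), a mesenchymal marker, lay at 21670.3 to 24954. From the same list S100a4 (10955 to 20621), Pdpn (7512 to 13384), Cald1 (4683 to 7535), Tagln, Acta2 and Des were also over 100 on every array. Of these 14 fibroblast and smooth muscle markers 5 (Pdgfrb, Thy1, Fap, Cnn1 and Tcf21) were under 100 on every array. Leukocyte and endothelial markers were mostly under 100 (6 of 8 and 4 of 6 on every array), including Ptprc (1.08 to 32.8) and Pecam1 (1.64 to 56.2). The leukocyte marker Cd14 (2871 to 4088) and the endothelial marker Tek (182 to 801) were over 100 on every array. Cdx2, an intestinal transcription factor that was singled out after its values were seen, lay at 55.0 to 124 in the plain set and 3072 to 5314 in the b set. The 3′ to 5′ signal ratio of the actin control, a measure of RNA and labelling quality, was 1.498 to 1.639 in the plain set and 1.218 to 1.338 in the b set. The part of these differences in the matrix signals was not tested.

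With indomethacin the matrix genes that changed all went down. Nid1 (nidogen-1, the linker between laminin and type IV collagen), Eln (elastin), Mfap4 and Fbn1 of the elastic fibre, the proteoglycan Dcn (decorin), and the glycoproteins Postn (periostin), Tnc (tenascin-C) and Tnn (tenascin-N) fell, by between 1.24-fold and 2.52-fold on the log2(signal + 50) scale. Thus 8 of 34 fell and 0 rose in limma's moderated test at a Benjamini-Hochberg adjusted p under 0.05, beside 2.04% of all named genes tested that fell and 1.55% that rose. The median log2 change over the 34 genes was -0.19, and 28 of them had a value below 0. At an unadjusted p under 0.05 there were 16. Without any 1 array Nid1, Eln and Mfap4 were still called, although Eln was not with the median of a gene's probe sets (limma adjusted p = 0.133); Dcn, Postn, Tnc, Tnn and Fbn1 were not called without DMSO 1b, indomethacin 1b or indomethacin 2b, nor Fbn1 without DMSO 2b, at limma adjusted p-values from 0.0552 to 0.305. Col5a1 and Fbln2 passed without NS-398 2 or 1b, Col6a1 without NS-398 1, 2 or 2b and Lama5 without DMSO 2b; the count was 4 without the intensity trend, when Fbn1, Dcn, Postn and Tnc were lost, 6 without a filter on low signals, when Fbn1 and Postn were lost, and 0 without the set term. In the b set alone, the only set with indomethacin, 8 fell and 2 rose, beside 3.57% and 4.04% of all named genes: Tnc was not called (limma adjusted p = 0.0536), Fbln2 fell, and Col6a1 and Col6a2 rose.

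With NS-398 the genes went both ways. The fibrillar collagen chains Col1a2 and Col5a1, the laminin chain Lamb2, Nid1, Eln, Fbn1, Fbln2 (fibulin-2), Mfap4, Thbs2 (thrombospondin-2) and Postn fell, while the network collagen Col8a1 and the proteoglycans Dcn and Vcan (versican) rose. That is 10 of 34 lower, beside 7.08% of all named genes tested, and 3 of 34 higher, beside 7.91%. The median log2 change was -0.09. Nid1, Eln, Fbn1, Mfap4 and Postn were called lower for both drugs, each of which was compared with the same DMSO arrays, and Dcn was called in opposite directions. Fbn1 was not called without DMSO 1, DMSO 2, DMSO 2b, NS-398 1 or NS-398 2b, Col8a1 not without DMSO 2, DMSO 2b or NS-398 2, and Fbln2 not without DMSO 1b (limma adjusted p from 0.0522 to 0.0935). Col6a1 passed without DMSO 2 or NS-398 1 or 2, Sparc without DMSO 2b or NS-398 2b and Lox without DMSO 1b or NS-398 2b. Lum also passed without NS-398 2b, but its test rests on the NS-398 arrays that brought it past the filter. The count was 2, Nid1 and Mfap4, without the set term. Fbn1 and Col8a1 were also lost without a filter on low signals, and Fbn1 and Fbln2 without the intensity trend. With SC-560, whose dose was lower, 0 of 34 genes passed the limma threshold, as did 0% of all named genes, and 3 had an unadjusted p under 0.05. The smallest adjusted p was 0.428, and log2 changes ran from -0.26 (Fbn1) to 0.44 (Col6a1).

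**Figure D1:**
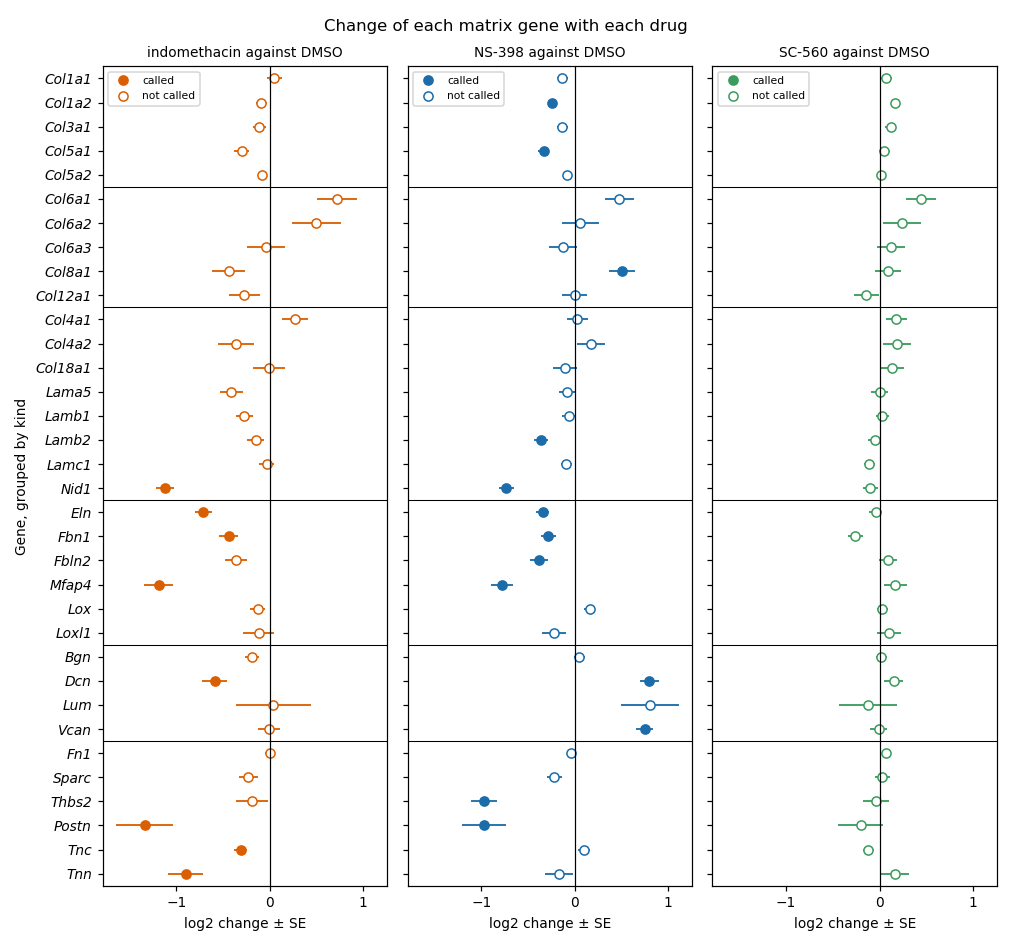
Log2 change of log2(signal + 50) against DMSO for the 34 genes with each drug, from the fit on 14 arrays; points are estimates, bars standard errors, and filled points passed an adjusted p of 0.05. Indomethacin has 8 filled points, all left of 0, from Postn at -1.34 to Tnc at -0.31, NS-398 has 10 left and 3 right of 0, and SC-560 has none.

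On the chosen probe sets 2 of the 5 fibrillar collagen chains were called against DMSO, both lower with NS-398 and by little. Beside them, 7.08% of all named genes tested fell with NS-398. Col1a2, the second chain of type I collagen, fell. Col1a2 signals on the plain arrays were 8890.2 and 8745 with DMSO, 6781 and 7279 with NS-398 and 9479 and 9885 with SC-560. For Col1a2 the b arrays gave 22133 and 22324 with DMSO, 21660.5 and 21365 with indomethacin, 18919 and 20816 with NS-398 and 26221 and 25258 with SC-560. Both NS-398 arrays lay under both DMSO arrays in each set, and the log2 change was -0.24 ± 0.04 (SE; limma adjusted p = 0.00132). Col5a1, a chain of type V collagen, which sets fibril diameter, also fell with NS-398. Col5a1 signals on the plain arrays were 1563 and 1628 with DMSO, 1266 and 1331 with NS-398 and 1582 and 1555 with SC-560. For Col5a1 the b arrays gave 3524 and 3703 with DMSO, 2959.8 and 2936 with indomethacin, 2529 and 3056 with NS-398 and 3964 and 3934 with SC-560. Both NS-398 arrays lay under both DMSO arrays in each set here too, with a log2 change of -0.33 ± 0.06 (limma adjusted p = 0.00276). A second probe set for Col5a1 gave -0.29 and did not pass (limma adjusted p = 0.196). With indomethacin Col5a1 lay at -0.30 ± 0.08 and did not pass (limma adjusted p = 0.0577), although both arrays were below DMSO.

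Col1a1, the other type I chain, and Col3a1, the chain of type III collagen, did not pass against DMSO for any drug on the chosen probe sets, where their NS-398 effect differed between the sets. Col1a1 signals on the plain arrays were 13537 and 12708 with DMSO, 10473 and 10818 with NS-398 and 12596 and 12144 with SC-560. For Col1a1 the b arrays gave 20679 and 19228 with DMSO, 21282 and 23294 with indomethacin, 19814 and 21401 with NS-398 and 24194 and 22467 with SC-560. NS-398 thus lay below DMSO in the plain set, and overlapped it in the b set. The within-set log2 changes were -0.30 and 0.05. A second Col1a1 probe set, with a mean signal of 10508, gave the reverse: it was called lower with NS-398 (-0.24, limma adjusted p = 0.00474), and its interaction was -0.00 (limma adjusted p = 0.988). Col3a1 signals on the plain arrays were 21825 and 21757 with DMSO, 16746 and 18076 with NS-398 and 21959 and 23381 with SC-560. For Col3a1 the b arrays gave 25336 and 24877 with DMSO, 24275 and 25179 with indomethacin, 25897 and 26409 with NS-398 and 28560.4 and 28529 with SC-560. Its within-set changes were -0.32 (plain) and 0.06 (b), with the NS-398 arrays under DMSO in the one and just above it in the other. Col5a2, the second type V chain, ranged from 13146 to 15066 (median 14405) in the plain set and 17029 to 19022 (median 18344) in the b set. On the chosen probe set its log2 changes were -0.08 ± 0.05 with indomethacin, -0.08 ± 0.04 with NS-398 and 0.02 ± 0.04 with SC-560, and none passed. A second Col5a2 probe set, with a mean signal of 10616, was called lower with NS-398 (-0.18, limma adjusted p = 0.0455).

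Col6a1 and Col6a2, chains of type VI collagen, which forms beaded filaments next to basement membranes, differed between the sets in their NS-398 effect. Col6a1 signals on the plain arrays were 579 and 619 with DMSO, 579 and 586 with NS-398 and 879 and 785 with SC-560. For Col6a1 the b arrays gave 1769.8 and 1996 with DMSO, 3582 and 3486 with indomethacin, 3455 and 4177 with NS-398 and 2517 and 2652 with SC-560. In the b set all 4 arrays with indomethacin or NS-398 lay above the others, at a log2 change of 0.89 and 1.00 in that set alone (limma adjusted p = 2.56e-04 and 4.79e-05), while NS-398 overlapped DMSO in the plain set (-0.04). Over all arrays the values were 0.72 ± 0.21 and 0.48 ± 0.16, which did not pass (limma adjusted p = 0.0655 and 0.0545). Col6a2, which lies beside Col6a1 on rat chromosome 20, went in opposite directions in the sets. Col6a2 signals on the plain arrays were 588 and 575 with DMSO, 394 and 324 with NS-398 and 710.2 and 599.5 with SC-560. For Col6a2 the b arrays gave 1522 and 1456 with DMSO, 2318 and 2836 with indomethacin, 2461 and 2648 with NS-398 and 1859 and 1919 with SC-560. The NS-398 arrays were the lowest of the plain set and lay above DMSO and SC-560 in the b set, at log2 changes of -0.63 and 0.76 (limma adjusted p = 0.00925 and 2.59e-04). It was the one gene of the 34 called in opposite directions in the 2 sets taken alone. A second Col6a2 probe set, with a mean signal of 57.4, had an interaction of 0.65, which did not pass (limma adjusted p = 0.460). Indomethacin gave 0.76 for Col6a2 in the b set alone (limma adjusted p = 7.03e-04). Col6a3, the third chain, was under 100 on all 6 plain arrays and ranged from 50.7 to 70.4 (median 60.4) in the plain set and 129 to 280.2 (median 191) in the b set; no drug comparison passed (-0.04 ± 0.20 with indomethacin and -0.12 ± 0.15 with NS-398).

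Col8a1, a short-chain network-forming collagen, rose with NS-398. Col8a1 signals on the plain arrays were 617 and 526 with DMSO, 778 and 1188 with NS-398 and 632 and 542 with SC-560. For Col8a1 the b arrays gave 141 and 126 with DMSO, 68.4 and 94.0 with indomethacin, 193 and 159.9 with NS-398 and 134 and 171 with SC-560. The NS-398 arrays lay above DMSO in both sets, with a log2 change of 0.51 ± 0.14 (limma adjusted p = 0.0238; 0.0513 with the 2 arrays of each group and set as a random block); the within-set values were 0.71 (adjusted p = 0.0192) and 0.30 (adjusted p = 0.311). Both indomethacin arrays were under 100 and under DMSO, at -0.44 ± 0.18, which did not pass (limma adjusted p = 0.218). Col12a1, a fibril-associated collagen, ranged from 1063 to 1845 (median 1426) in the plain set and 933 to 1252 (median 1068) in the b set, with log2 changes of -0.27 ± 0.17 with indomethacin, 0.00 ± 0.13 with NS-398 and -0.14 ± 0.13 with SC-560 and no call.

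**Figure D2:**
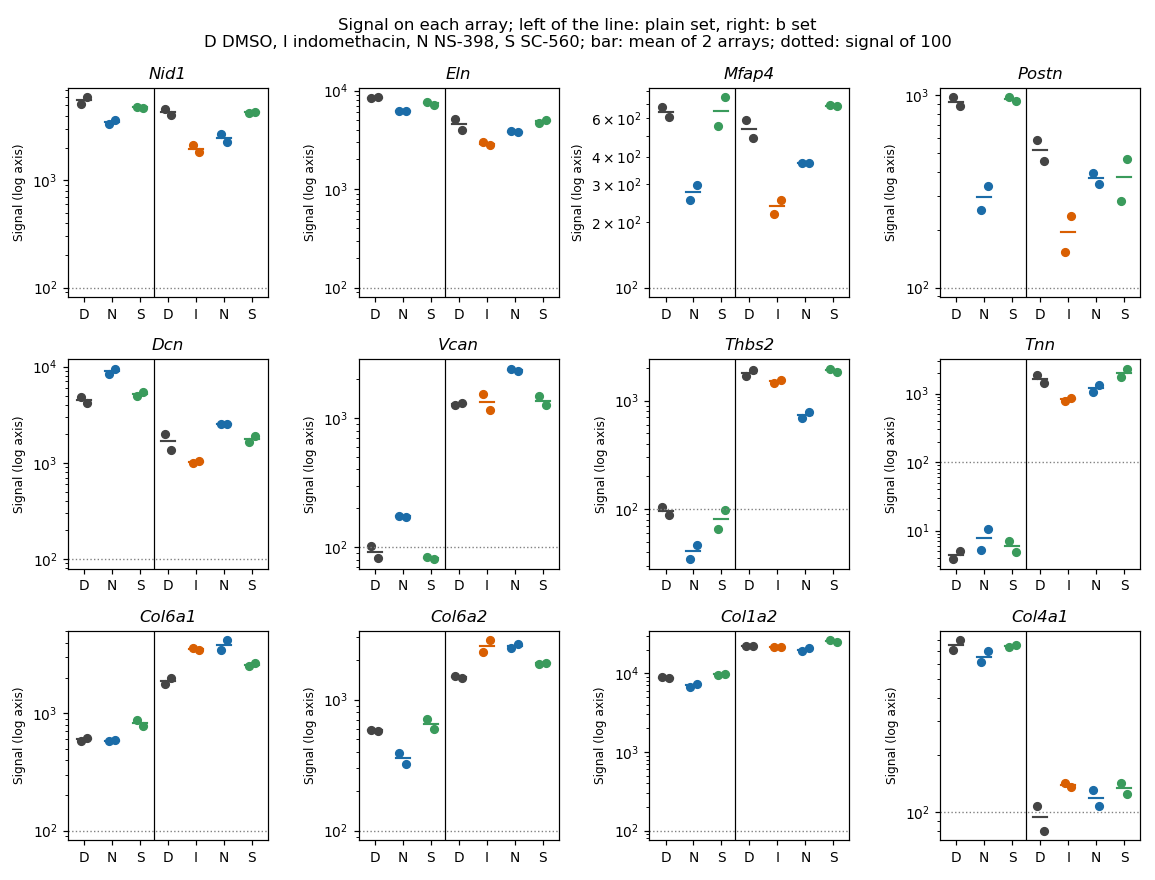
Signal of 12 genes on each array, on log axes; points are arrays, bars the mean of 2 arrays, and the vertical line parts the plain set (left) from the b set (right). Nid1 and Mfap4 with NS-398 lie under DMSO in both sets, Dcn and Vcan with NS-398 above it, and Tnn is at 3.83 to 10.4 in the plain set against 788 to 2313 in the b set.

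Of the 8 basement membrane genes, Nid1 fell with both drugs and Lamb2 with NS-398. Nid1 had the smallest adjusted p of the 34 genes in either drug comparison. Nid1 signals on the plain arrays were 5161 and 5955 with DMSO, 3379 and 3631 with NS-398 and 4835 and 4750.1 with SC-560. For Nid1 the b arrays gave 4583 and 4052 with DMSO, 2133 and 1823 with indomethacin, 2677 and 2253 with NS-398 and 4276 and 4376 with SC-560. Indomethacin gave the lowest 2 signals of the 14, and NS-398 lay under DMSO and SC-560 in both sets. The log2 change was -1.12 ± 0.10 with indomethacin (limma adjusted p = 1.30e-05), a 2.17-fold fall, and -0.73 ± 0.08 with NS-398 (limma adjusted p = 2.07e-05), 1.65-fold. With SC-560 it was -0.10 ± 0.08 and did not pass. A second Nid1 probe set, with a mean signal of 333 against 3636 for the chosen one, gave -0.51 and -0.17, neither of which passed (limma adjusted p = 0.144 and 0.474). Lamb2, the laminin beta-2 chain, fell with NS-398. Lamb2 signals on the plain arrays were 2837 and 2932 with DMSO, 1988 and 2077 with NS-398 and 2951 and 2467 with SC-560. For Lamb2 the b arrays gave 2476 and 2224 with DMSO, 2066 and 2339 with indomethacin, 1980.1 and 2024 with NS-398 and 2403 and 2276 with SC-560. The NS-398 arrays were below DMSO in both sets, at -0.36 ± 0.07 (limma adjusted p = 0.00312), with -0.22 in the b set alone, which did not pass there (adjusted p = 0.0839).

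Lama5, the laminin alpha-5 chain of adult epithelia, and Lamc1, the common gamma-1 chain, were not called against DMSO on the chosen probe sets, where the effect of NS-398 on them differed between the sets. Lama5 signals on the plain arrays were 3549 and 3639 with DMSO, 2801 and 2755 with NS-398 and 3451 and 3322 with SC-560. For Lama5 the b arrays gave 2699 and 2465 with DMSO, 1952 and 2263 with indomethacin, 2903 and 3079 with NS-398 and 2518 and 3013 with SC-560. NS-398 was under DMSO in the plain set (-0.37) and over it in the b set (0.21), and both indomethacin arrays lay under DMSO without passing (-0.41 ± 0.12, limma adjusted p = 0.0769). A second Lama5 probe set, with a lower mean signal (77.6), went the other way between the sets, so the direction for Lama5 rests on the probe set chosen. Lamc1 signals on the plain arrays were 6006 and 6121 with DMSO, 4905 and 5119 with NS-398 and 5462 and 5575 with SC-560. For Lamc1 the b arrays gave 4849 and 5169.9 with DMSO, 5204 and 5089 with indomethacin, 5354 and 5353 with NS-398 and 4674 and 4784 with SC-560. The NS-398 arrays were again the lowest of the plain set and above DMSO in the b set, at -0.27 and 0.10. A second Lamc1 probe set, with a mean signal of 1864, was called lower with NS-398 (-0.24, limma adjusted p = 0.0213) and had an interaction of 0.02 (limma adjusted p = 0.953). Lamb1, the beta-1 chain, ranged from 2371 to 3081 (median 2716) in the plain set and 1779 to 2374 (median 2158) in the b set and Col18a1, the basement membrane collagen that contains endostatin, from 441 to 796 (median 710.2) in the plain set and 453 to 639 (median 565) in the b set; neither was called for a drug, with indomethacin values of -0.27 ± 0.09 and -0.01 ± 0.17.

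Col4a1 and Col4a2 encode the chains of the main type IV collagen network and lie next to each other on rat chromosome 16, transcribed in opposite directions. The stretch between their starts in RefSeq's GRCr8 table is 76 bases long (chr16:84885521-84885596, plus strand) and is shown with the promoter of Nid1, the member with the smallest adjusted p in both drug comparisons (chr17:93069186-93069285, plus strand, the 100 bases before its start). Capitals mark a GC box (GGGCGG or its reverse complement CCGCCC), and in the promoters printed further on also a TATA box (TATAAA or TTTATA) or a CCAAT box (CCAAT or ATTGG); these motifs do not overlap each other in the stretches printed.
Col4a2 to Col4a1: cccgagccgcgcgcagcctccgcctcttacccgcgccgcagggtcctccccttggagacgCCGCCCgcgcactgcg
Nid1: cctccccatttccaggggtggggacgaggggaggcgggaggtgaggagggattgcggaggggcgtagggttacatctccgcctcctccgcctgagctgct
A GC box was found in the stretch between the type IV collagen genes, and none of the 3 motifs in the Nid1 window. Of the 34 genes 22 matched an entry of the promoter table, and 8 of those held a GC box in their 100 bases, beside 21.6% of all 33469 promoters of that length. Col4a1 and Col4a2 are both among the 8, and their windows share the 1 box of the stretch between them. Bgn, Col12a1, Col1a1, Col3a1, Col6a2, Dcn, Eln, Fn1, Lamb2, Lox, Mfap4 and Thbs2 had no entry. Col4a1 signals on the plain arrays were 709 and 800.1 with DMSO, 612 and 703 with NS-398 and 737 and 759.8 with SC-560. For Col4a1 the b arrays gave 108 and 80.1 with DMSO, 143 and 135 with indomethacin, 131 and 108 with NS-398 and 143 and 125 with SC-560. Every b array was below every plain array, and no drug comparison passed (0.27 ± 0.14 with indomethacin, 0.03 ± 0.11 with NS-398 and 0.18 ± 0.11 with SC-560). Col4a2 ranged from 268 to 336 (median 304) in the plain set and 57.7 to 199 (median 126) in the b set, also without overlap, and its drug values were -0.36 ± 0.19, 0.18 ± 0.15 and 0.19 ± 0.15 in the same order, none of which passed.

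Of the 6 elastic fibre genes 3 fell with indomethacin and 4 with NS-398, beside 2.04% and 7.08% of all named genes tested, and 0 rose. Of 12 other elastic fibre genes tested, 2 fell and 0 rose with indomethacin, and 1 fell and 2 rose with NS-398. Eln signals on the plain arrays were 8369.6 and 8552 with DMSO, 6217 and 6203 with NS-398 and 7578 and 7212 with SC-560. For Eln the b arrays gave 5129 and 3951 with DMSO, 3010.0 and 2788 with indomethacin, 3912 and 3757 with NS-398 and 4686 and 5027 with SC-560. Every indomethacin array lay under all other b arrays, and NS-398 lay under DMSO in both sets. The log2 change was -0.71 ± 0.09 with indomethacin (limma adjusted p = 3.97e-04) and -0.34 ± 0.07 with NS-398 (limma adjusted p = 0.00563); the NS-398 value did not pass in the b set alone (-0.23, adjusted p = 0.153). Mfap4, a microfibril-associated glycoprotein, fell further. Mfap4 signals on the plain arrays were 675 and 606 with DMSO, 253 and 295 with NS-398 and 551 and 751 with SC-560. For Mfap4 the b arrays gave 587 and 489 with DMSO, 219 and 254 with indomethacin, 376 and 374 with NS-398 and 691 and 684 with SC-560. NS-398 and indomethacin did not overlap DMSO in any set, and the log2 changes were -1.19 ± 0.16 with indomethacin (limma adjusted p = 3.96e-04) and -0.78 ± 0.12 with NS-398 (limma adjusted p = 5.27e-04), 2.29-fold and 1.72-fold lower.

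Fbn1, the fibrillin-1 scaffold of microfibrils, fell less. Fbn1 signals on the plain arrays were 6385 and 6117 with DMSO, 5108 and 5955 with NS-398 and 4744 and 4911 with SC-560. For Fbn1 the b arrays gave 9886 and 10708 with DMSO, 7975 and 7211 with indomethacin, 8836 and 7139 with NS-398 and 9451 and 8973 with SC-560. All 3 drugs lay under DMSO in every set they were in, with log2 changes of -0.44 ± 0.10 for indomethacin (limma adjusted p = 0.0262), -0.28 ± 0.08 for NS-398 (limma adjusted p = 0.0300) and -0.26 ± 0.08 for SC-560, which did not pass (limma adjusted p = 0.465). The NS-398 call did not hold in the plain set alone (-0.18, adjusted p = 0.157). With the 2 arrays of each group and set as a random block neither call of Fbn1 held (limma adjusted p = 0.0572 and 0.0561), and a second Fbn1 probe set gave -0.12 and -0.09 without passing (limma adjusted p = 0.569 and 0.509). Fbln2, a microfibril- and basement membrane-binding protein, fell with NS-398, by more in the b set. Fbln2 signals on the plain arrays were 5508 and 5012 with DMSO, 4519 and 5331 with NS-398 and 5427 and 6082 with SC-560. For Fbln2 the b arrays gave 12651 and 12341 with DMSO, 8884 and 9231 with indomethacin, 7265 and 8484 with NS-398 and 12781 and 13245 with SC-560. NS-398 and DMSO overlapped in the plain set (-0.10) and were apart in the b set (-0.67); over both the change was -0.38 ± 0.10 (limma adjusted p = 0.0137). With indomethacin Fbln2 lay at -0.36 ± 0.12 and did not pass (limma adjusted p = 0.138).

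The lysyl oxidases were not called against DMSO. Lox signals on the plain arrays were 10469.9 and 11017 with DMSO, 12984 and 13704 with NS-398 and 10798 and 11221 with SC-560. For Lox the b arrays gave 11245 and 10001 with DMSO, 9262 and 9450.2 with indomethacin, 10804 and 10398 with NS-398 and 10573 and 11102 with SC-560. NS-398 exceeded DMSO in the plain set alone (0.31, limma adjusted p = 0.00516) and overlapped it in the b set. The interaction of a second Lox probe set was -0.13 and did not pass (limma adjusted p = 0.530). Loxl1, the form tied to elastin deposition, ranged from 207 to 290.2 (median 271) in the plain set and 505 to 999.7 (median 792) in the b set, with -0.12 ± 0.17 for indomethacin and -0.22 ± 0.13 for NS-398.

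Of the 4 proteoglycans 2, Dcn and Vcan, rose with NS-398, beside 7.91% of all named genes tested. Dcn, the collagen-binding decorin, fell with indomethacin. Dcn signals on the plain arrays were 4850.0 and 4215 with DMSO, 8389 and 9486 with NS-398 and 4898 and 5502 with SC-560. For Dcn the b arrays gave 1986 and 1355 with DMSO, 999.5 and 1035 with indomethacin, 2559 and 2554 with NS-398 and 1644 and 1916 with SC-560. NS-398 lay above DMSO in both sets, and both indomethacin arrays lay under every other array. The log2 changes were 0.80 ± 0.10 with NS-398 (limma adjusted p = 7.39e-05) and -0.59 ± 0.13 with indomethacin (limma adjusted p = 0.0188). Vcan, a large hyaluronan-binding proteoglycan, rose with NS-398 at both of its very different levels. Vcan signals on the plain arrays were 102 and 82.7 with DMSO, 175 and 171 with NS-398 and 84.5 and 80.7 with SC-560. For Vcan the b arrays gave 1254 and 1301 with DMSO, 1524 and 1159.6 with indomethacin, 2410.3 and 2313 with NS-398 and 1477 and 1256 with SC-560. NS-398 was above all other arrays within each set, at 0.65 in the plain set and 0.86 in the b set, and 0.75 ± 0.09 over both (limma adjusted p = 5.51e-05). Indomethacin overlapped DMSO (-0.01 ± 0.12).

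Lum (lumican), the neighbour of Dcn on rat chromosome 7, was under 100 on 12 arrays and exceeded it only on NS-398 arrays 1 and 2. Lum signals on the plain arrays were 54.8 and 43.0 with DMSO, 246 and 271 with NS-398 and 42.7 and 25.8 with SC-560. For Lum the b arrays gave 22.5 and 17.2 with DMSO, 20.7 and 2.47 with indomethacin, 41.3 and 1.88 with NS-398 and 21.1 and 18.8 with SC-560. The NS-398 change was 1.64 in the plain set alone and -0.02 in the b set alone, where all values are low; these are given with no test, since the NS-398 arrays of the plain set are what brought Lum past the filter. Over both sets it was 0.81 ± 0.31, which did not pass (limma adjusted p = 0.0969). Bgn (biglycan), the close relative of decorin, ranged from 9007 to 9454 (median 9217) in the plain set and 8935 to 12669 (median 10801) in the b set, and its log2 changes were -0.19 ± 0.07 with indomethacin, 0.05 ± 0.06 with NS-398 and 0.02 ± 0.06 with SC-560, none of which passed.

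Of the matrix glycoproteins, Postn, Tnc and Tnn fell with indomethacin, and Postn and Thbs2 with NS-398. The promoters of Postn, which fell with both drugs, and of Tnn, whose sets were furthest apart, are shown as the 100 bases before each start in GRCr8 (chr2:140677961-140678060, plus strand, and chr13:74919790-74919889, minus strand).
Postn: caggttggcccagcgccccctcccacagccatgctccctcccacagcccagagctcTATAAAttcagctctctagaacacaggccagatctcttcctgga
Tnn: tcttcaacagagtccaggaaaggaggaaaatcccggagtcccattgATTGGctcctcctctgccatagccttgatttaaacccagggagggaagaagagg
Postn was the 1 gene of the 22 with a TATA box in this window, beside 5.78% of all promoters, and Tnn the 1 with a CCAAT box, beside 17.1%. Postn signals on the plain arrays were 976 and 882 with DMSO, 253 and 336 with NS-398 and 979 and 941 with SC-560. For Postn the b arrays gave 586 and 456 with DMSO, 153 and 236 with indomethacin, 397 and 347 with NS-398 and 281 and 468 with SC-560. NS-398 lay under DMSO in both sets and indomethacin under every other array; SC-560 overlapped DMSO. The log2 change of Postn was -1.34 ± 0.31 with indomethacin (limma adjusted p = 0.0245) and -0.97 ± 0.24 with NS-398 (limma adjusted p = 0.0120), the latter at -1.52 in the plain set and -0.43 in the b set, where it did not pass (adjusted p = 0.221).

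Thbs2, an anti-angiogenic matricellular protein, fell with NS-398. Thbs2 signals on the plain arrays were 105 and 88.7 with DMSO, 34.6 and 46.9 with NS-398 and 65.1 and 98.1 with SC-560. For Thbs2 the b arrays gave 1681 and 1919 with DMSO, 1458 and 1565 with indomethacin, 685 and 782 with NS-398 and 1967 and 1837 with SC-560. NS-398 was lowest in both sets, at -0.97 ± 0.14 (limma adjusted p = 2.02e-04); in the plain set, where 5 of 6 signals were under 100, the value alone did not pass (-0.69, adjusted p = 0.0705). Indomethacin gave -0.19 ± 0.17, which did not pass. Tnc, an anti-adhesive glycoprotein, fell with indomethacin only slightly. Tnc signals on the plain arrays were 3159 and 3362 with DMSO, 3339 and 3503 with NS-398 and 2938 and 2842 with SC-560. For Tnc the b arrays gave 2089 and 1942 with DMSO, 1738 and 1555 with indomethacin, 2175 and 2225 with NS-398 and 2016 and 1831 with SC-560. Indomethacin was below all other b arrays, at -0.31 ± 0.07 (limma adjusted p = 0.0260; 0.0668 with the 2 arrays of each group and set as a random block), and NS-398 gave 0.10 ± 0.06, which did not pass.

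Tnn, a tenascin found mainly around bone, was far under a signal of 100 on all plain arrays. Tnn signals on the plain arrays were 3.83 and 4.97 with DMSO, 5.24 and 10.4 with NS-398 and 7.07 and 4.81 with SC-560. For Tnn the b arrays gave 1855 and 1437 with DMSO, 788 and 869 with indomethacin, 1055 and 1359 with NS-398 and 1755 and 2313 with SC-560. Both indomethacin arrays were under all other b arrays, at -0.90 ± 0.19 (limma adjusted p = 0.0152) and -0.94 in the b set alone. Sparc, a collagen-binding glycoprotein, was lower with NS-398 in the plain set alone. Sparc signals on the plain arrays were 10103 and 9102 with DMSO, 6762 and 6794 with NS-398 and 8864 and 8875 with SC-560. For Sparc the b arrays gave 11708 and 11616 with DMSO, 10719 and 11264 with indomethacin, 11903 and 12517 with NS-398 and 13304 and 13088 with SC-560. The NS-398 values were -0.50 in the plain set (limma adjusted p = 4.58e-04) and 0.07 in the b set, and -0.22 ± 0.08 over both, which did not pass (limma adjusted p = 0.0803). A second Sparc probe set, with a mean signal of 7125, gave 0.02 over both sets and an interaction of 0.01 (limma adjusted p = 0.970). Fn1 (fibronectin), the substrate of many integrins, ranged from 14307 to 17067 (median 15939.9) in the plain set and 13208 to 14438 (median 13642) in the b set, with log2 changes of 0.00 ± 0.05 for indomethacin, -0.04 ± 0.04 for NS-398 and 0.07 ± 0.04 for SC-560 and no call.

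Indomethacin and NS-398, given at the same dose and time, differed most in Dcn. Dcn, Vcan and Col8a1 were lower with indomethacin than with NS-398, at -1.39 ± 0.13, -0.77 ± 0.12 and -0.94 ± 0.18 on the log2 scale, and so were Nid1 (-0.39 ± 0.10), Eln (-0.38 ± 0.09), Lox (-0.28 ± 0.08), Tnc (-0.41 ± 0.07) and Tnn (-0.72 ± 0.19). Thbs2 alone was higher (0.77 ± 0.17). That is 8 of 34 lower, beside 3.85% of all named genes tested, and 1 of 34 higher, beside 2.27%. After quantile normalization the split was 7 lower and 3 higher. Mfap4 and Postn, which fell with both drugs, did not pass here: the difference was -0.42 ± 0.16 for Mfap4 (95% interval -0.75 to -0.08; limma adjusted p = 0.140) and -0.36 ± 0.31 for Postn (95% interval -1.01 to 0.29; limma adjusted p = 0.567), which does not show that the drugs act alike on them. In the b set alone, the only set with both drugs, Mfap4, Postn, Lama5 and Lamb1 passed, all lower with indomethacin. Nid1 (-0.31, limma adjusted p = 0.0643), Lox (-0.18, limma adjusted p = 0.0740) and Tnn were not called there. For Tnn the mean b-set signal with indomethacin was 0.687 of that with NS-398. The value of Tnn over all arrays also draws on plain signals of 3.83 to 10.4. The NS-398 effect on Lox differed between the sets on the chosen probe set. Over all arrays Dcn and Vcan stayed called without any 1 array. Nid1, Eln, Thbs2 and Tnn were each not called without indomethacin 1b or 2b, nor without NS-398 1b (Nid1, Eln, Thbs2), NS-398 1 (Nid1) or NS-398 2b (Tnn). Col8a1 was not called without indomethacin 1b, Tnc not without indomethacin 2b, and Lox not without any of 11 arrays, all but DMSO 1b, NS-398 1b and NS-398 2b (limma adjusted p from 0.0513 to 0.323). Col1a2 passed without NS-398 2b and Bgn without NS-398 1b. Lum also passed without NS-398 2b, but its test rests on the plain NS-398 arrays that brought it past the filter. The count was 5 without the intensity trend, without a filter or with a random block for group and set. Each of these settings ended the calls of Nid1, Eln, Lox and Tnn.

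Whether NS-398 acted alike in both sets was tested as an interaction on the 12 arrays without indomethacin. Its effect was more positive in the b set for Col6a2 (1.39 ± 0.14), Postn (1.09 ± 0.25), Col6a1 (1.03 ± 0.14), Lama5 (0.57 ± 0.11), Sparc (0.56 ± 0.08), Col3a1 (0.38 ± 0.07), Lamc1 (0.37 ± 0.08) and Col1a1 (0.35 ± 0.08), and more negative for Fbln2 (-0.57 ± 0.12) and Lox (-0.31 ± 0.08). These are 8 of 34 in the one direction, beside 3.86% of all named genes, and 2 in the other, beside 2.91%. The value of Lum was -1.66; it passed too, but its test rests on the 2 arrays that brought it past the filter, and it is left out of the 2. Over the 30 genes that reached the filter in each set by itself, a count added after the data were seen, the numbers were also 8 and 2, beside 3.93% and 3.12%. Of the 11, Lum included, 9 had values of opposite signs in the 2 sets, the exceptions being Fbln2 and Postn, although the b-set values of Lox and Lum were near 0. In the plain set alone 13 genes were lower and 5 higher, beside 5.70% and 5.50% of all named genes. The 5 include Lum, whose NS-398 arrays in that set brought it past the filter. In the b set alone 7 were lower and 4 higher, beside 7.01% and 9.15%. Another tested probe set existed for Col1a1, Col6a2, Lama5, Lamc1, Lox and Sparc, and its interaction passed for 0 of these 6. On the chosen probe sets Col3a1, Col6a1, Col6a2, Lama5 and Sparc stayed called without any 1 array. Col1a1 was not called without DMSO 1, DMSO 2b or NS-398 1, 2 or 2b, Lamc1 not without DMSO 2, DMSO 1b or NS-398 1, and Fbln2 not without DMSO 2, DMSO 1b or NS-398 2. Postn was not called without DMSO 1, DMSO 2b or NS-398 1 or 1b, and Lox not without any of 9 arrays, all but DMSO 2b, SC-560 1 and SC-560 2 (limma adjusted p from 0.0509 to 0.191). Eln passed without DMSO 1b, Dcn without DMSO 2b and Mfap4 without SC-560 1 or 2; the count was 4 without the intensity trend and 6 with the median of a gene's probe sets, which ended the calls of Col1a1, Col6a2, Lama5, Lamc1 and Lox. For SC-560 the same interaction gave 0 of 34 calls in limma, beside 0.0102% of all named genes, with 3 genes at an unadjusted p under 0.05.

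**Figure D3:**
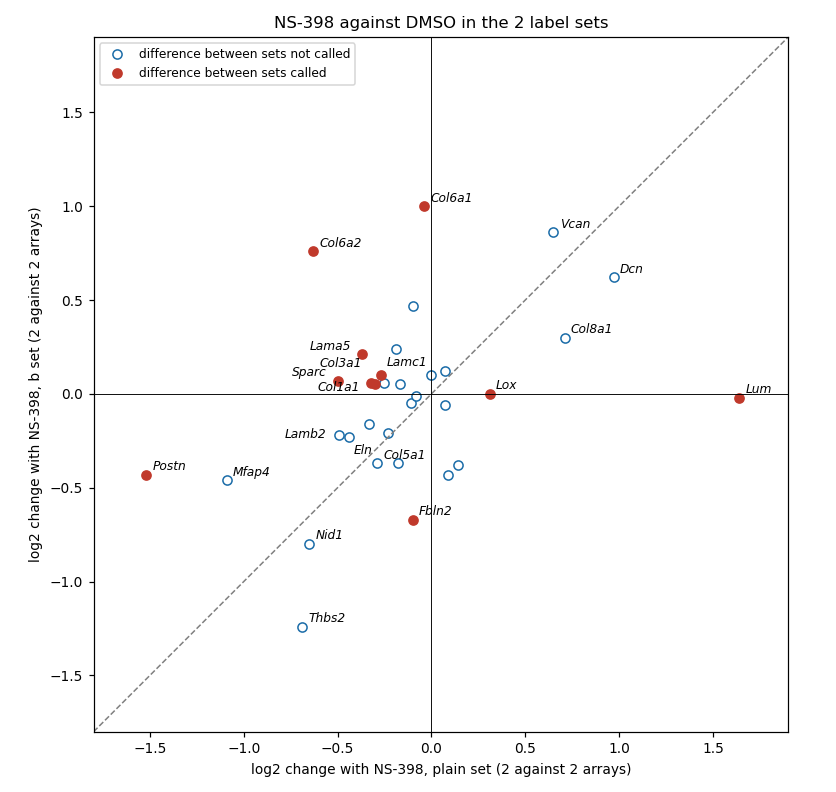
Log2 change with NS-398 in the plain set (horizontal) and in the b set (vertical), each from 2 NS-398 and 2 DMSO arrays; red points are the 11 genes whose interaction passed (Lum reached the signal filter only through the plain NS-398 arrays), and the dashed line marks equal change. Col6a2 lies at -0.63 and 0.76, Lum at 1.64 and -0.02, and Nid1, near the line, at -0.65 and -0.80.

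Between the 2 label sets 32 of the 34 genes were called, as were 6221 of the 9835 named genes tested. The 32 include Tnn, Col6a3, Thbs2 and Lum, which are treated apart below. The 5 fibrillar collagen chains were all higher in the b set, from 0.37 ± 0.05 (Col3a1) and 0.37 ± 0.03 (Col5a2) to 1.41 ± 0.04 (Col1a2) on the log2 scale, as were Col6a2 (1.81 ± 0.16) and Col6a1 (1.92 ± 0.13). The basement membrane genes among the 34 went the other way: 7 of 8 were lower in the b set, with Col4a1 at -2.22 ± 0.09 and Col4a2 at -0.89 ± 0.12. Col18a1, at -0.26 ± 0.11, did not pass (limma adjusted p = 0.0521). In all, 16 of 34 were higher, beside 34.6% of all named genes tested, and 16 lower, beside 28.6%. Tnn, Col6a3, Thbs2 and Lum passed the filter through the set where they were high and so had to differ. Over the 30 genes that reached it in each set, 13 were higher, beside 33.9% of named genes so chosen, and 15 lower, beside 29.2%. The set labels and whatever else differed between the sets cannot be told apart.

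Vcan differed by 3.36 ± 0.08 and was higher in the b set (limma adjusted p = 6.34e-16). Its plain signals were 80.7 to 175, so the log2(signal + 50) scale understates the ratio. The 4 genes that passed the filter through one set are described by their signals only, with no test: Tnn lay at 3.83 to 10.4 (median 5.11) in the plain set and 788 to 2313 (median 1398) in the b set. Thbs2 lay at 34.6 to 105 (median 76.9) in the plain set and 685 to 1967 (median 1623) in the b set. Their sets did not overlap, and nor did those of Col6a3, while those of Lum did. Dcn (-1.58 ± 0.08) and Col8a1 (-1.86 ± 0.11) were lower in the b set. Fbn1 (0.72 ± 0.07), Fbln2 (1.03 ± 0.08) and Loxl1 (1.43 ± 0.11) were higher and Eln (-0.73 ± 0.06) and Lox (-0.12 ± 0.05) lower, so the elastic fibre group split, with Mfap4 at 0.08 ± 0.10 and no call. The remaining falls were Tnc (-0.63 ± 0.05), Postn (-0.59 ± 0.19) and Fn1 (-0.20 ± 0.03), and the remaining rises Sparc (0.57 ± 0.06) and Bgn (0.28 ± 0.05). Lama5 was not called without DMSO 1, 2 or 2b or SC-560 1b, Lamb2 not without DMSO 2b or SC-560 1, Lamc1 not without any 1 DMSO or SC-560 array, and Lox not without DMSO 2 or 2b, any 1 NS-398 array, SC-560 2 or SC-560 1b (limma adjusted p from 0.0509 to 0.119). Col18a1 passed without NS-398 1 or 1b. Lox was also lost with a random block, and neither Lox nor Nid1 passed on its second probe set (limma adjusted p = 0.149 and 0.497). A second Lama5 probe set was called the other way, higher in the b set (0.29, limma adjusted p = 0.0452).

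**Figure D4:**
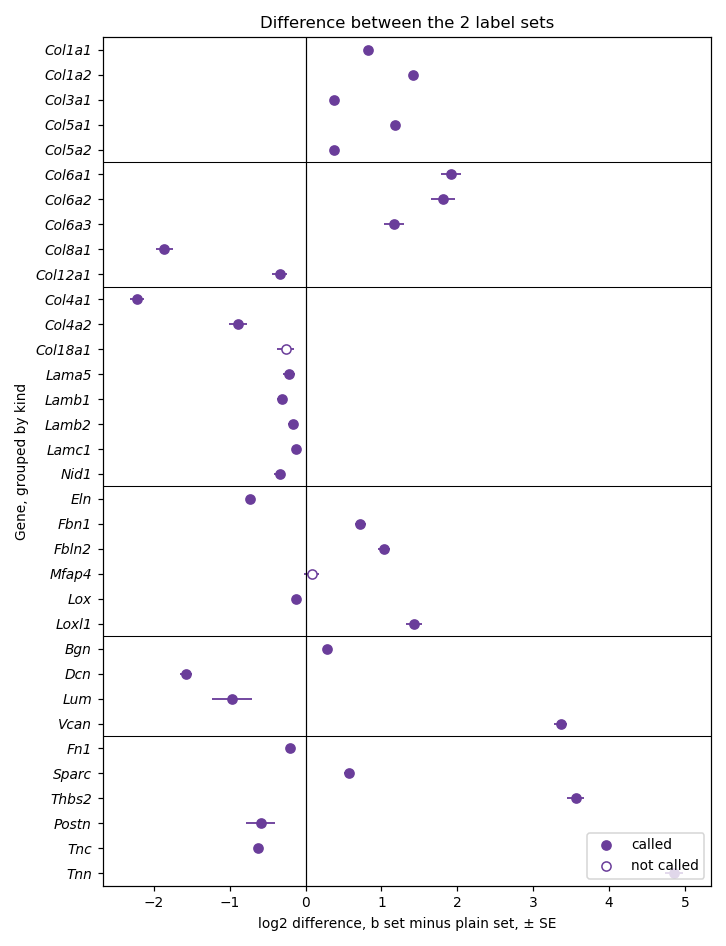
Log2 difference between the b set and the plain set for each gene, adjusted for drug, with standard errors; filled points passed an adjusted p of 0.05. Fibrillar and type VI collagens lie right of 0, basement membrane genes left of it, and Tnn at 4.86 and Col4a1 at -2.22 mark the ends; Tnn, Col6a3 and Thbs2 passed the signal filter through b arrays and Lum through plain arrays.

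**Figure D5:**
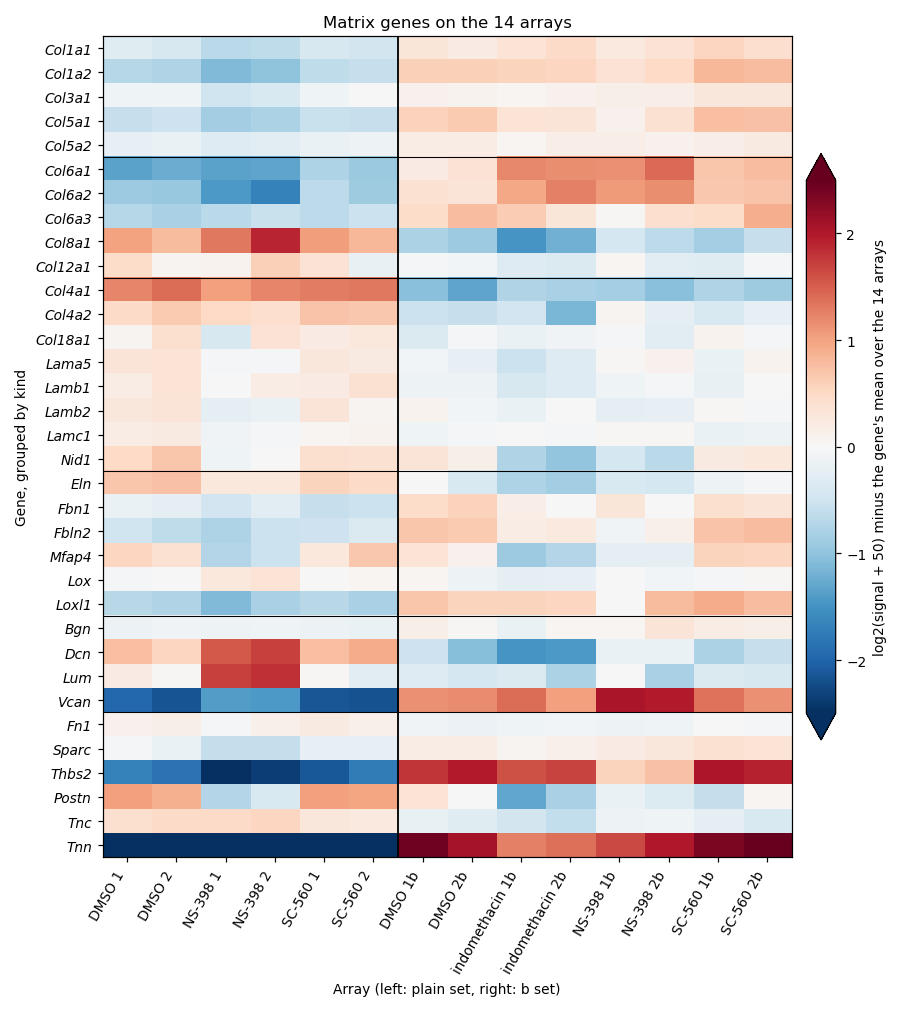
Log2(signal + 50) of each gene on each array, as a difference from the gene's mean over the 14 arrays; red is higher, blue lower, and the scale ends at 2.5 in each direction. The change of colour at the black line between the sets is seen in most rows, while drug columns stand out within a set for genes such as Dcn, Lum, Postn and Thbs2.

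Other matrix genes were taken from a list of 116, of which 101 were on the arrays and 70 were tested. With indomethacin 2 rose and 6 fell, beside 1.55% and 2.04% of all named genes. Ltbp4 and Ltbp3, which bind latent TGF-beta to microfibrils, changed by -0.59 ± 0.07 and -0.42 ± 0.07 in log2 terms (limma adjusted p = 1.53e-04 and 0.00424), and the secreted glycoproteins Ecm1 (0.31 ± 0.08) and Spp1 (osteopontin, 0.61 ± 0.16) rose (limma adjusted p = 0.0415 and 0.0425). With NS-398 7 rose and 14 fell, beside 7.91% and 7.08%. Hapln1, which links versican to hyaluronan, rose (0.96 ± 0.07, limma adjusted p = 4.00e-07), with signals of 1694 and 1473 with DMSO and 3345 and 3279 with NS-398 in the plain set. In the b set they were 846 and 713 with DMSO and 1463 and 1486 with NS-398. Fbln5, which assembles elastin, rose too (0.57 ± 0.11), while Mgp, an inhibitor of calcification, and Pcolce, which enhances procollagen cleavage, fell (-0.52 ± 0.08 and -0.32 ± 0.05). None passed with SC-560. Between the sets, of the 60 that reached the filter in each set, 28 were higher in the b set and 23 lower, beside 33.9% and 29.2% of named genes so chosen. The collagen-processing enzymes and chaperones among them were, like the fibrillar collagens, mostly higher there: 15 of 16 higher and 1 lower, with a median log2 difference of 0.54. Basement membrane genes outside the 34 did not share the direction of those among them. Of 8 tested, 2 were higher in the b set and 3 lower, beside 34.6% and 28.6% of all named genes tested. Their median was 0.11, and these 8 were not limited to genes that reached the filter in each set.

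Marker signals of other cell types are given here beside the matrix results. In the b set the summed signal of 16 epithelial markers was 23719 to 23988 with indomethacin and 20158 to 20721 with DMSO. It was 20694 to 22003 with NS-398 and 22242 to 22499.6 with SC-560. The sum of 14 fibroblast and smooth muscle markers there was 53922 to 56269 with indomethacin and 55420.1 to 58418 with DMSO. With NS-398 the fibroblast and smooth muscle sum was 54499 to 55557 in the plain set, beside 57219 to 59048 with DMSO, and 59434 to 59901 in the b set. Of the 9 tested markers of that list 2 fell with indomethacin, beside 2.04% of all named genes: Tagln (transgelin, -1.65 ± 0.27) and Cald1 (caldesmon, -0.48 ± 0.07). The median log2 change of the 9 was -0.01. Acta2 (-0.14 ± 0.15), Myh11 (0.35 ± 0.26) and Des (desmin, 0.22 ± 0.18) did not pass with indomethacin, and Cnn1 was under 100 on every array. With NS-398 Tagln and Cald1 fell too (-1.04 ± 0.21 and -0.21 ± 0.05), beside 7.08%, and Des rose (0.61 ± 0.14), beside 7.91%. Among tested leukocyte and endothelial markers only Cd14 was called against DMSO, higher with indomethacin (0.27 ± 0.07). Of the 9 tested epithelial markers the keratin Krt8 rose with indomethacin (0.23 ± 0.06), and Krt8 (-0.30 ± 0.05) and Krt7 (-0.49 ± 0.15) fell with NS-398. Their part in the changes of the matrix genes was not tested, and in bulk RNA fewer cells of a type and less RNA per cell cannot be told apart. Another 18 tested probe sets measured 15 of the 34 genes. Where the chosen probe set was called, the other was called in the same direction in 0 of 2 cases for indomethacin, 4 of 7 for NS-398, 3 of 5 for indomethacin against NS-398, 14 of 17 between the sets and 0 of 6 for the interaction. It had the same sign, called or not, in 2, 7, 5, 16 and 4 of them.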

How the data were processed

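RNA from 14 arrays of rat IEC-6 cells was compared. The authors deposited 1 table of linear signal intensities for 31099 probe sets, scaled per the labels so that the target was 500; how probes were combined into a signal is not given in the sources used here. Probe sets were named through the platform annotation, updated with RefSeq gene identifiers (GRCr8): 20832 matched 1 symbol, 9831 none, and 436 with more than 1 were left unnamed. The 57 control probe sets were left out. Probe sets with a signal of 100 on at least 2 arrays (17515) were fitted as log2(signal + 50) in limma 3.58.1 (R 4.3.3) with 1 mean per group and an additive term for the label set, and empirical Bayes moderation with an intensity trend. Benjamini-Hochberg adjustment ran over all probe sets tested, and adjusted p under 0.05 was called. Errors after ± are standard errors. The interaction used 1 mean per group and set. The number of arrays limits the precision; no counts or depths apply.

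Percentages of named genes use 1 probe set per gene. The members, lists and tests were chosen with earlier results of these data known. All 34 members are named, with signals on every array for those called in a drug comparison or an interaction; up to 2 called genes in each direction are named from the other matrix genes. Arrays with the same label (1, 2, 1b or 2b) were checked as pairs: with the means of group and set removed they correlated between -0.08 and 0.06, so the labels carry no pairing beyond the set. The fit was tested on simulated data. Alternatives were other pseudocounts (16 and 200), filters (none, 200), quantile normalization, the median of a gene's probe sets, no intensity trend, a replicate block, a random block, 1 mean per group and set, no set term, each set alone, leaving out each array and, added after seeing the data, counting only genes that passed the filter in each set. Motifs were searched on both strands of 100 bases.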

Additional observations from a re-analysis of the deposited data

Results flagged for a closer look

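For 11 of the 34 matrix genes, Lum included, the effect of NS-398 differed between the 2 label sets in limma's interaction test. Of all named genes tested 3.86% passed as more positive in the b set and 2.91% as more negative. Over the 30 matrix genes that reached the filter in each set, 8 were more positive and 2 more negative, beside 3.93% and 3.12% of named genes so chosen. The difference, b set minus plain set on the log2 scale, was 1.39 for Col6a2, 1.09 for Postn, 1.03 for Col6a1, 0.57 for Lama5, 0.56 for Sparc, 0.38 for Col3a1, 0.37 for Lamc1 and 0.35 for Col1a1. It was -1.66 for Lum, -0.57 for Fbln2 and -0.31 for Lox. Lum passed the signal filter only through NS-398 arrays 1 and 2, so its test says nothing beyond those signals. For Col1a1, Col6a2, Lama5, Lamc1, Lox and Sparc a second probe set did not pass. The cause was not tested. Among 102 groups of 4 arrays, no array lay far enough from the other 3 to be singled out.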

How the results depend on the processing

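The number of called matrix genes depended on the model and, for NS-398, also on the normalization. For indomethacin it was 8, and 4 without the intensity trend, 6 with a random block for group and set (Fbn1 and Tnc lost), 6 with the median of a gene's probe sets (Eln and Fbn1 lost), 0 without the set term and 3 to 11 on leaving out 1 array. For NS-398 it was 13, and 11 with the random block (Fbn1 and Col8a1 lost), 2 without the set term and 12 to 15 on leaving out 1 array. For indomethacin against NS-398 it was 9, and 5 without a filter on low signals, 5 without the intensity trend, 5 with a random block for group and set, 0 without the set term and 3 to 10 on leaving out 1 array. For SC-560 it was 0, and 1 (Col6a1) with 1 mean per group and set. For the NS-398 interaction it was 11, and 6 with the median of a gene's probe sets, 4 without the intensity trend and 6 to 12 on leaving out 1 array. With the replicate block added to the set term the numbers were 8, 13 and 7 for indomethacin, NS-398 and indomethacin against NS-398. Between the sets it was 31 in place of 32. For the interaction, where the block was added to the means of group and set, it was 11. The block ended the calls of Lox and Tnn between indomethacin and NS-398. After quantile normalization 14 genes were lower and 3 higher with NS-398. With 1 mean per group and set 10 were lower and 2 higher with indomethacin, and 13 lower and 6 higher with NS-398. For indomethacin against NS-398 that fit gave 12 lower and 1 higher.

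Some values changed sign. Without the set term Tnn was at 1.54 for indomethacin and 1.71 for indomethacin against NS-398, where Vcan was at 0.91; without that term indomethacin arrays are compared with DMSO arrays of both sets. In the plain set alone Col6a2 was at -0.63 for NS-398. With the median of a gene's probe sets Lama5 was at 0.44 for NS-398, 0.29 between the sets and -0.17 for the interaction, and Eln at 0.00 for indomethacin against NS-398. Where the cause is not given by the setting itself, it was not tested.

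Over all named genes, 353 were called for indomethacin (781 with 1 mean per group and set, 748 in the b set alone, 227 without a filter, 201 without the trend, 190 with the random block, 2 without the set term). For NS-398 1474 were called (69 without the set term), and for indomethacin against NS-398 602 (1104, 1031, 399 without the trend, 354 with the random block and 9 without the set term). The interaction had 666 (419 without a filter, 221 without the trend).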
